A study of Mus musculus with 15 samples.

Results

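The mitochondrial respiratory chain genes were followed through healing of mouse skin. They were taken by symbol: the Ndufa, Ndufb, Ndufc, Ndufs and Ndufv genes of complex I, the 4 Sdh genes of complex II, the Uqcr genes of complex III, the Cox4 to Cox8 genes of complex IV, the Atp5 genes of complex V, and the genes of the mitochondrial genome that start with mt-Nd, mt-Cytb, mt-Co or mt-Atp. Of 113 matching rows, 7 pseudogene rows were left out, which left 106 genes. A level of at least 1 CPM (counts scaled to library size) in 3 or more libraries kept 104 of them, out of 30281 named genes. The genes left out at that step, Cox7b2 and Cox8c, averaged 0.00228 and 0.00629 CPM over the 15 libraries and reached 1 CPM in 0 of them. The 104 genes were 13 encoded by mitochondrial DNA, 82 nuclear encoded subunits and 9 assembly factors (Ndufaf1 to Ndufaf8, and Atp5sl, now named Dmac2). Ndufa4 and its paralogue Ndufa4l2 were counted with complex I by their names, although the Ndufa4 protein is known as a subunit of complex IV. All 104 passed the filter on low counts, so no member was lost before testing.

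The respiratory chain passes electrons from NADH and succinate to oxygen through complexes I to IV and pumps protons across the inner mitochondrial membrane, and complex V, the ATP synthase, uses that gradient to make ATP. Complexes I, III, IV and V are mosaics of subunits from both genomes, while complex II is nuclear encoded. Mitochondrial DNA is transcribed from both strands as long precursors that are cut into mRNAs, whereas each nuclear subunit has a promoter of its own. In healing skin, epidermal cells, fibroblasts and incoming leukocytes draw on both glycolysis and respiration.

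Skin of C57BL/6 mice was sequenced at day 0, 1, 3, 5 and 7, with 3 libraries at each time and 15 in all. The labels give a wound as the stress for every library, day 0 included, and name no genotype, age, sex or further treatment. They say that muscle and fat were removed before freezing, and they name a library kit for mRNA. The labels do not state whether replicates were separate animals, so the p-values reflect only how far these samples spread, and that spread could be technical.

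The libraries held 38062562 to 60450396 estimated counts, and no pair of libraries was identical. Epidermal and dermal markers were present in every library: the summed level was 5637 to 15454 CPM for 9 keratinocyte markers and 24048 to 69238 CPM for 6 dermal fibroblast markers. The 12 skeletal muscle markers summed to 3130 to 13546 CPM despite the stated removal of muscle. Hair follicle markers summed to 13131 CPM in day 5 replicate 2 and 16247 CPM in day 7 replicate 3, and to 8.31 to 1482 CPM in the other 13 libraries. In bulk tissue, fewer cells of a type and less RNA per cell cannot be told apart.

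Transcripts of the mitochondrial genome took a larger part of the counts at day 1, 5 and 7 than at day 0, while the nuclear encoded subunits took about the same part throughout. The 13 mitochondrial genes held 5.29%, 6.30% and 5.95% of all counts in the day 0 libraries, 7.37%, 6.98% and 7.53% at day 1, 5.34%, 6.04% and 6.30% at day 3, 7.83%, 7.42% and 8.70% at day 5, and 8.09%, 9.44% and 9.26% at day 7. Every library of day 1, 5 and 7 lay above the day 0 libraries, and those of day 3 overlapped them. The 82 nuclear subunits together held 0.853% to 1.03% of the counts in all 15 libraries, with means of 0.995%, 0.977%, 0.922%, 0.936% and 0.954% at day 0, 1, 3, 5 and 7. The ratio of mitochondrial to nuclear subunit counts, which does not depend on library scaling, was 5.38, 6.37 and 5.87 at day 0, 7.55, 7.39 and 7.44 at day 1, 5.83, 6.13 and 7.27 at day 3, 9.11, 7.25 and 9.41 at day 5, and 9.48, 9.65 and 8.97 at day 7. On the log2 scale the mean ratio exceeded that of day 0 by 0.35 at day 1, 0.12 at day 3, 0.54 at day 5 and 0.68 at day 7. These are sums over members chosen with results of these data known, so they are given as a description, with no test.

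**Figure D1:**
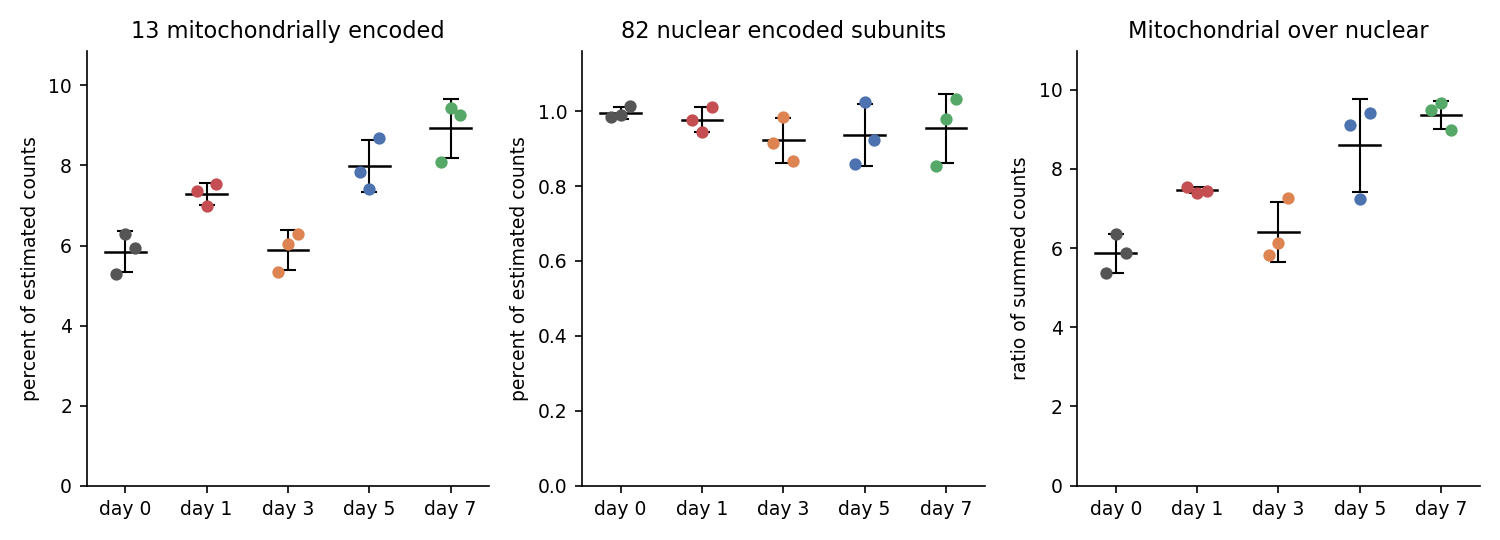
Percent of all estimated counts in the 13 mitochondrially encoded genes (left) and in the 82 nuclear encoded subunits (middle), and the ratio of both sums (right), at day 0, 1, 3, 5 and 7. Each point is a library and the bar and whisker give the mean and SD of 3 libraries; the mitochondrial percent is 8.09 to 9.44 at day 7 and 5.29 to 6.30 at day 0, while the nuclear percent stays between 0.853 and 1.03.

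Gene by gene, each wounded time was tested against day 0 with edgeR's quasi-likelihood test over 17136 genes, and a gene was called at a Benjamini-Hochberg adjusted p under 0.05. All 4 comparisons share the day 0 libraries, so they are not independent of each other. At day 7, 9 of the 104 genes were called and all were mitochondrially encoded and higher, which is 9 of 13 (69.2%), where 3.1% of all genes tested were called higher and 7.05% either way. At day 1, 4 of the 104 genes were called, 3 mitochondrial genes higher and Ndufa4l2 lower, where 7.58% of all genes tested were called, 4.22% higher and 3.36% lower. At day 5 mt-Nd4l alone was called, higher, where 0.502% of all genes were called and 0.21% were called higher. At day 3 edgeR called none, where 0.788% of all genes were called. An unadjusted p under 0.05 from edgeR was found for 18 of the 104 members and for 2707 of the 17136 genes tested. DESeq2 called 2 members at day 3, and its share of all genes called is not given here. The median log2 fold change of the 13 mitochondrial genes was 0.43 at day 1, 0.08 at day 3, 0.49 at day 5 and 0.72 at day 7, against -0.02, -0.11, -0.10 and -0.01 for the 82 nuclear subunits. Over all genes tested the median stayed within 0.0167 of 0.

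**Figure D2:**
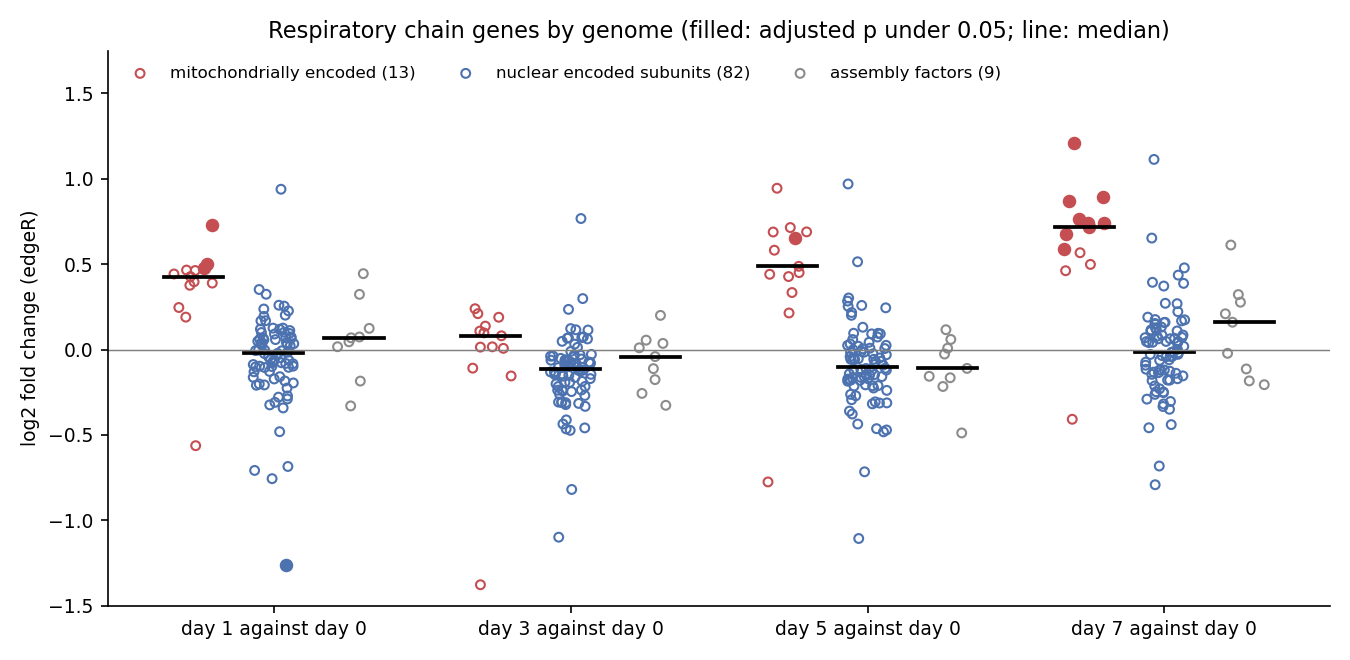
Log2 fold change of each of the 104 respiratory chain genes at day 1, 3, 5 and 7 against day 0, from edgeR, with mitochondrially encoded genes, nuclear encoded subunits and assembly factors set apart. Filled points passed an adjusted p of 0.05 and black lines are medians; the mitochondrial median is 0.72 at day 7, where the nuclear subunit median is -0.01.

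Among the mitochondrial genes called at day 7, mt-Atp8 had the largest fold change. It is a gene that encodes a small subunit of the membrane part of ATP synthase. It stood at 614, 679 and 659 CPM in the day 0 libraries, at 971, 989 and 1276 CPM at day 1, at 585, 692 and 812 CPM at day 3, at 1079, 1406 and 1272 CPM at day 5, and at 1437, 1155 and 1917 CPM at day 7. Every library of day 1, 5 and 7 was above every day 0 library, while day 3 overlapped day 0. The log2 fold change at day 7 was 1.21 (SE 0.19; adjusted p = 0.0089, edgeR), at day 1 it was 0.73 (SE 0.19; adjusted p = 0.0388), and at day 5 it was 0.94 without passing the test (adjusted p = 0.0509).

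The end of mt-Atp8 is also the start of mt-Atp6, which encodes the subunit that carries protons through the synthase, so reads from that stretch match both genes. In GENCODE's annotation of GRCm38, 43 bases are shared, which is 21.1% of the 204 bases of mt-Atp8 and 6.31% of the 681 bases of mt-Atp6. The last 60 bases of mt-Atp8 (chrM:7910-7969, plus strand) and the first 60 of mt-Atp6 (chrM:7927-7986, plus strand) are shown because counts of this overlap cannot be assigned to either gene; capitals mark the shared bases.
mt-Atp8: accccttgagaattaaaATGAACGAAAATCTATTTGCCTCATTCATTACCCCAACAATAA
mt-Atp6: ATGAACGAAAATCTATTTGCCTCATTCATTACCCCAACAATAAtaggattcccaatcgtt
In the same annotation mt-Nd4l and mt-Nd4 share 7 bases, mt-Atp6 and mt-Co3 share 1, and mt-Nd5 and mt-Nd6 overlap by 14 bases on opposite strands. The use of strand when the authors counted is not stated. Between those neighbours the overlap is short, whereas mt-Atp8 and mt-Atp6 share more bases. Values of overlapping neighbours, mt-Nd4l and mt-Nd4 among them, are not taken as independent of each other here. mt-Atp6 itself was at 9840, 11102 and 12496 CPM in day 7 libraries, against 5911, 7597 and 6813 CPM in day 0 libraries, a log2 fold change of 0.72 (SE 0.15; adjusted p = 0.0212).

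The 6 complex I genes of the mitochondrial genome other than mt-Nd3 were above day 0 in every day 1, 5 and 7 library, and they encode membrane subunits of its proton-pumping arm. mt-Nd4 had 4319, 4706 and 4567 CPM at day 0, 6453, 6053 and 5966 CPM at day 1, 4489, 4397 and 5487 CPM at day 3, 7068, 5696 and 7581 CPM at day 5, and 7307, 9341 and 8185 CPM at day 7. Its day 7 libraries all exceeded its day 0 libraries, with a log2 fold change of 0.87 (SE 0.15; adjusted p = 0.0097). mt-Nd4l had 634, 531 and 643 CPM at day 0, 902, 797 and 820 CPM at day 1, 687, 609 and 765 CPM at day 3, 1016, 872 and 953 CPM at day 5, and 933, 1040 and 1045 CPM at day 7. It is the member called at each of day 1 (log2 fold change 0.48, adjusted p = 0.0326), day 5 (0.65, adjusted p = 0.0452) and day 7 (0.74, adjusted p = 0.0089). mt-Nd1 averaged 5986 ± 775 CPM at day 7 and 3751 ± 244 CPM at day 0 (SD, n = 3 each; log2 fold change 0.67, adjusted p = 0.0197 from edgeR), and at day 1 it passed narrowly with 5311 ± 297 CPM (log2 fold change 0.50, adjusted p = 0.04999 from edgeR). mt-Nd5 rose at day 7 by 0.59 on the log2 scale (adjusted p = 0.0379). mt-Nd2 averaged 3346 ± 344 CPM at day 7 and 2430 ± 202 CPM at day 0 (SD, n = 3 each) and did not pass (log2 fold change 0.46, adjusted p = 0.0888 from edgeR).

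mt-Nd6 is the protein gene of the mitochondrial genome that is read from the strand opposite to the other 12. It followed the same course, with 498, 711 and 520 CPM at day 0, 851, 785 and 751 CPM at day 1, 559, 570 and 772 CPM at day 3, 979, 772 and 1034 CPM at day 5, and 918, 971 and 1052 CPM at day 7. The day 7 libraries all lay above the day 0 libraries, and the log2 fold change was 0.77 (SE 0.17, adjusted p = 0.0231 from edgeR). Because the use of strand in counting is not stated, these mt-Nd6 counts may hold reads from the opposite strand.

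Cytochrome b, the mitochondrial subunit of complex III that holds its ubiquinone sites, is encoded by mt-Cytb. Its levels were 5251, 5968 and 5779 CPM at day 0, 7658, 7593 and 7606 CPM at day 1, 5403, 6009 and 6908 CPM at day 3, 7696, 7286 and 8847 CPM at day 5, and 8318, 9867 and 10171 CPM at day 7. At day 7 it was higher by 0.74 on the log2 scale (SE 0.14; adjusted p = 0.0122). The day 1 libraries lay close together and all above day 0, with a log2 fold change of 0.43 that did not pass (adjusted p = 0.0684).

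The 3 mitochondrial genes of complex IV encode its catalytic core. mt-Co2, whose protein takes the electrons from cytochrome c, had 5105, 5998 and 5379 CPM at day 0, 7164, 6220 and 8204 CPM at day 1, 5622, 6144 and 7303 CPM at day 3, 8491, 8536 and 9548 CPM at day 5, and 8971, 10104 and 11587 CPM at day 7. Its log2 fold change at day 7 was 0.90 (SE 0.15; adjusted p = 0.0101). mt-Co1, which encodes the subunit that binds oxygen, averaged 23713 CPM at day 7 (20384 to 25926) and 16006 CPM at day 0 (13968 to 17680), and mt-Co3 averaged 11498 CPM (9719 to 12493) and 8138 CPM (7031 to 8869) at those times. Their day 7 libraries also lay wholly above day 0, with log2 fold changes of 0.57 and 0.50, and neither passed (adjusted p = 0.0527 and 0.0682). DESeq2 called both, and mt-Nd2, higher at day 7.

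**Figure D3:**
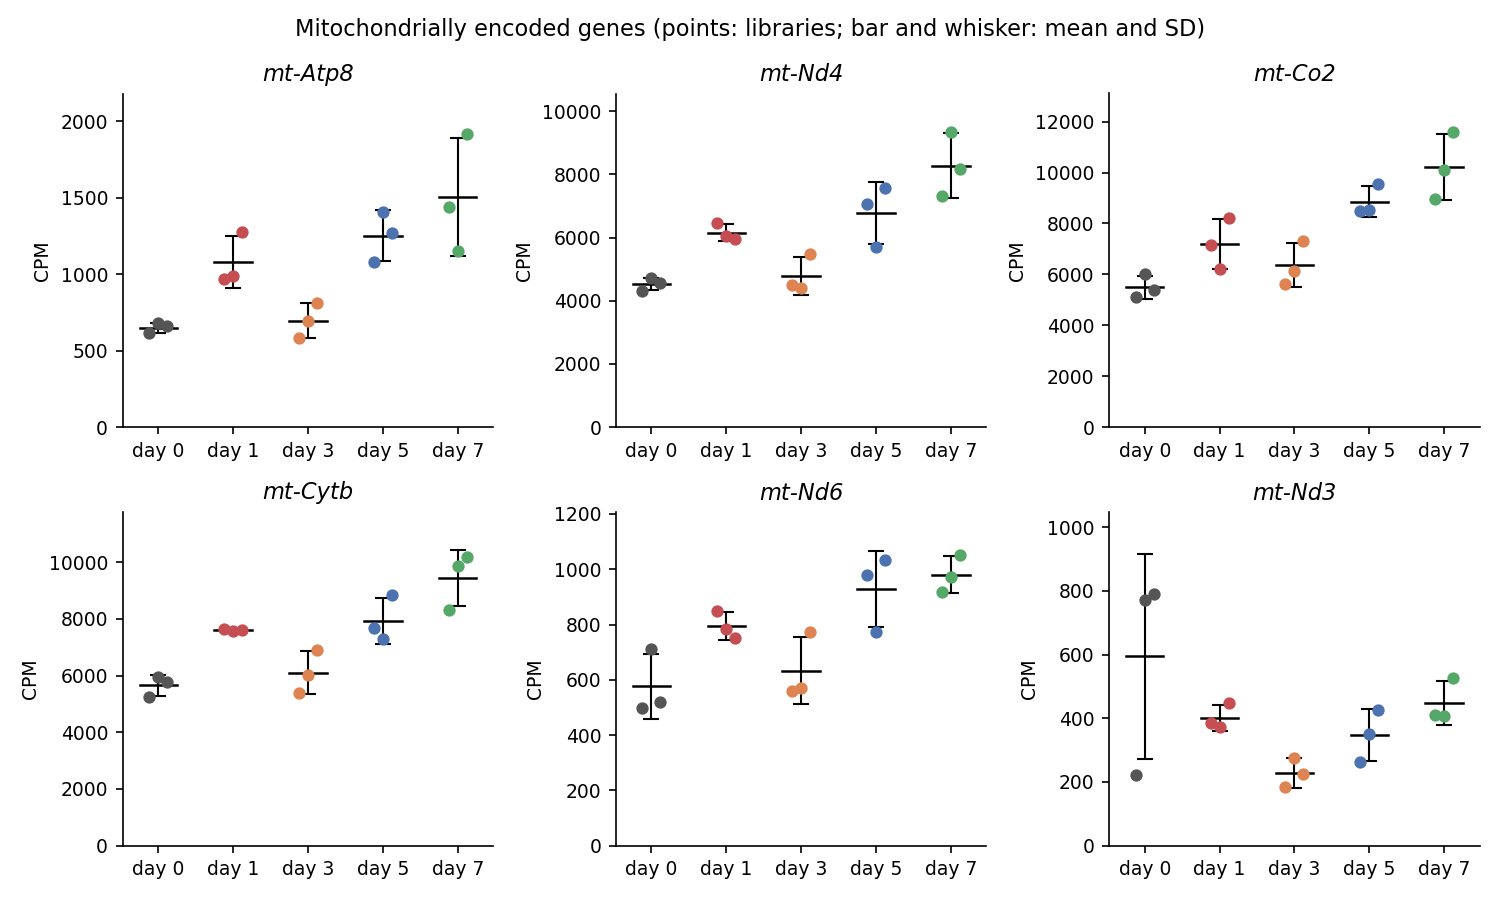
CPM of 6 mitochondrially encoded genes at day 0, 1, 3, 5 and 7. Points are libraries and the bar and whisker give the mean and SD of 3; in each panel but that of mt-Nd3 the day 7 points lie above the day 0 points, and mt-Nd3 has day 0 points at 771 and 789 CPM beside one at 223 CPM.

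All day 7 libraries were above all day 0 libraries for 12 of the 13 genes, where 13.9% of all genes tested showed this, and mt-Nd3 was the exception. At day 1 this held for the same number, 12 of 13, against 19.8% of all genes, and at day 5 for 11 of 13, against 12.3%. At day 3 it held for none of the 13, against 13.1%. mt-Nd3 had 223, 771 and 789 CPM at day 0, 384, 374 and 449 CPM at day 1, 184, 277 and 226 CPM at day 3, 264, 352 and 426 CPM at day 5, and 409, 407 and 527 CPM at day 7. Its day 0 replicates 2 and 3 lay above every other library, and its log2 fold change was -1.38 at day 3 (SE 0.37; adjusted p = 0.102 from edgeR, while DESeq2 called it lower) and -0.41 at day 7 (SE 0.36; adjusted p = 0.470). With day 0 replicate 1 as the day 0 library, these were 0.049 and 1.03. A nuclear gene of complex I, Ndufs5, stood apart in the same 2 libraries in the other direction, at 13.9 and 13.6 CPM, against 49.3 CPM in day 0 replicate 1 and 40.1 to 65.2 CPM in the 12 later libraries. In all, 13 of the 104 genes had both of these libraries above or below the other 13. How many of all genes tested did so was not computed. Of the members, only mt-Nd3 and Ndufs5 did so by a gap of more than 1.3-fold. Values of mt-Nd3 and Ndufs5 against day 0 therefore turn on which day 0 libraries are used.

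Leaving out a library changed how many mitochondrial genes passed at day 7. mt-Atp8, mt-Co2, mt-Cytb, mt-Nd4 and mt-Nd4l stayed called when any 1 of the 6 libraries was dropped, with adjusted p-values from edgeR of 0.00765 to 0.0428. The other 4 were not: mt-Atp6 lost its call without day 0 replicate 3, day 7 replicate 2 or day 7 replicate 3 (highest adjusted p 0.0741), mt-Nd1 without those or day 0 replicate 2 (0.0712), mt-Nd6 without those or day 0 replicate 1 (0.0837) and mt-Nd5 in 5 of 6 cases (0.102). Without day 0 replicate 3, 5 members were called at day 7, without day 7 replicate 3 also 5, and without day 7 replicate 1 there were 15. At day 1 no member stayed called without day 0 replicate 2, day 0 replicate 3 or any of the day 1 replicates, and without day 0 replicate 1 there were 6. The day 5 call of mt-Nd4l was lost without day 0 replicate 2, day 0 replicate 3, day 5 replicate 1 or day 5 replicate 3 (highest adjusted p 0.143), 3 members were called without day 0 replicate 1 and 2 without day 5 replicate 2. Without the hair-rich libraries, day 5 replicate 2 and day 7 replicate 3, 7 members were called at day 5 (6 mitochondrial) and 7 at day 7. The share of all genes called in each of these refits is not given here. The counts of members therefore cannot be set against it.

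The steps between wounded times do not use day 0. From day 1 to day 3 all 13 mitochondrial genes had a negative log2 fold change (median -0.34), and from day 3 to day 5 all 13 had a positive one (median 0.46). The step from day 5 to day 7 was smaller (median 0.25, with 12 of 13 above 0). The 82 nuclear subunits had medians of -0.09, 0.04 and 0.06 over these steps. No member was called by edgeR in any of them, where 0.00584%, 0.0233% and 0.00584% of all genes tested were called. Unadjusted edgeR p-values under 0.05 came to 20, 15 and 7 of the 104 members. Over all 17136 genes tested they came to 2199, 2586 and 1573. DESeq2 called 5, 9 and 0 members, and its share of all genes called is not given here. These counts cannot be set against the edgeR shares. Taken over all 5 times in an F test, 10 members were called, where 13.9% of all genes tested were: the 9 mitochondrial genes called at day 7, and Cox6b2. Without day 7 replicate 1 there were 18, and the share of all genes called in that fit is not given here.

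Levels along the mitochondrial genome were also taken per kilobase of annotated gene. They were highest for mt-Atp6 (12600 CPM per kb on average over the 15 libraries), mt-Co1 (12507), mt-Co3 (11650) and mt-Co2 (11148), whose ranges over libraries overlapped widely. mt-Cytb (6431), mt-Atp8 (5079), mt-Nd1 (4991) and mt-Nd4 (4432) came next, then mt-Nd4l (2749) and mt-Nd2 (2745), and mt-Nd5 (1803), mt-Nd6 (1508) and mt-Nd3 (1161) were lowest. The first and the last differed 10.9-fold. The full annotated length was used, from 204 bases for mt-Atp8 to 1824 for mt-Nd5. No allowance was made for fragment length or for bases shared by neighbours. The part of gene length in this order was not tested. mt-Atp6 was the most abundant per kilobase in 7 of 15 libraries, so the order of the first 4 is not fixed. mt-Co1 alone gave 26.9% of the mitochondrial counts on average.

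The nuclear encoded subunits changed little. Of 82, edgeR called 1 lower at day 1 (Ndufa4l2) and none at day 3, 5 or 7. Unadjusted edgeR p-values under 0.05 came to 16, 16 and 17 of the 82 at day 3, 5 and 7. Over all 17136 genes tested they came to 2707, 3374 and 4789. DESeq2, which called more members against day 0 at each time, had 3, 1, 2 and 7 of the 82 at day 1, 3, 5 and 7. The share of all genes that DESeq2 called is not given here. Its calls at day 7 included Sdha, Sdhc, Ndufa1 and Uqcrc1 lower and Cox4i2 and Ndufs5 higher. In edgeR, log2 fold changes lay within 0.5 of 0 for 77, 79, 78 and 78 of the 82 at day 1, 3, 5 and 7 (93.9% to 96.3%). The share was 71.2% to 78.8% of all genes tested, which were not matched to the subunits for level. The highest library was a median of 1.51 times the lowest, and under 2-fold in 72 of the 82. The narrowest range was that of Ndufs3, a subunit of the peripheral arm of complex I, at 58.9 to 68.3 CPM, and the widest were those of Ndufs5, Cox7a1 and Ndufa4l2. At day 3, 68 of 82 had a negative log2 fold change, and in 25 every day 3 library lay below every day 0 library, where 12.4% of all genes tested did. The median log2 fold change there was only -0.11.

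Complex I is the entry point for electrons from NADH. Its 38 nuclear subunits had median log2 fold changes of -0.06, -0.14, -0.11 and -0.03 at day 1, 3, 5 and 7. Ndufa4l2, a paralogue of Ndufa4 that is known to be induced by hypoxia, was the one called. It stood at 33.8, 48.0 and 50.6 CPM in day 1 libraries, against 72.04, 144 and 102 CPM in day 0 libraries, and these do not overlap. Its log2 fold change was -1.26 (SE 0.33; adjusted p = 0.0404, edgeR). The call was lost without each of the libraries in turn except day 0 replicate 1 (highest adjusted p 0.187). Later libraries ranged from 40.7 to 105 CPM. Ndufa4 itself ranged from 159 to 262 CPM and was not called at any time. Of the counts of both, Ndufa4l2 held 13.3% to 41.1% across libraries.

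Complex II, succinate dehydrogenase, links the citric acid cycle to the chain. Sdhc, one of its membrane anchors, came closest of the nuclear genes to a call at day 7, at 75.5, 93.0 and 78.3 CPM in day 7 libraries and 103, 108 and 100 CPM in day 0 libraries, with no overlap (log2 fold change -0.33, SE 0.09; adjusted p = 0.0508). Sdha, the catalytic flavoprotein, was at 186, 188 and 160 CPM in day 7 libraries and 217, 199 and 217 CPM in day 0 libraries, again with no overlap and not called (log2 fold change -0.25; adjusted p = 0.106). Sdhd (-0.26, adjusted p = 0.138) and the iron-sulfur subunit Sdhb (-0.17, adjusted p = 0.466) also had negative log2 fold changes at day 7 without passing. The median over the 4 was -0.04, -0.11, -0.27 and -0.25 at day 1, 3, 5 and 7.

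Complex III passes electrons from ubiquinol to cytochrome c. Its 8 nuclear subunits had medians of 0.03, -0.09, 0.00 and 0.08. Uqcrc1, a core subunit, had 154, 163 and 175 CPM in day 7 libraries and 214, 195 and 199 CPM in day 0 libraries, with no overlap and a log2 fold change of -0.30 that did not pass (adjusted p = 0.0921). Complex V had 16 nuclear members with medians of 0.00, -0.09, -0.07 and 0.05. Atp5b and Atp5a1, the catalytic and the regulatory large subunit of its soluble part, took the most counts of any nuclear member, 713 to 981 and 540 to 691 CPM, followed by Cox4i1 (238 to 328), Atp5f1 (227 to 320) and Atp5c1 (213 to 265); these counts also grow with transcript length. Atp5b had log2 fold changes of 0.17 at day 1 and -0.04 at day 7, both not called. Atp5g1, Atp5g2 and Atp5g3 encode the same mature subunit c, which forms the rotor ring; Atp5g2 had log2 fold changes of 0.24 to 0.30 and Atp5g1 and Atp5g3 of -0.21 to 0.06 over the 4 times, and none was called.

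**Figure D4:**
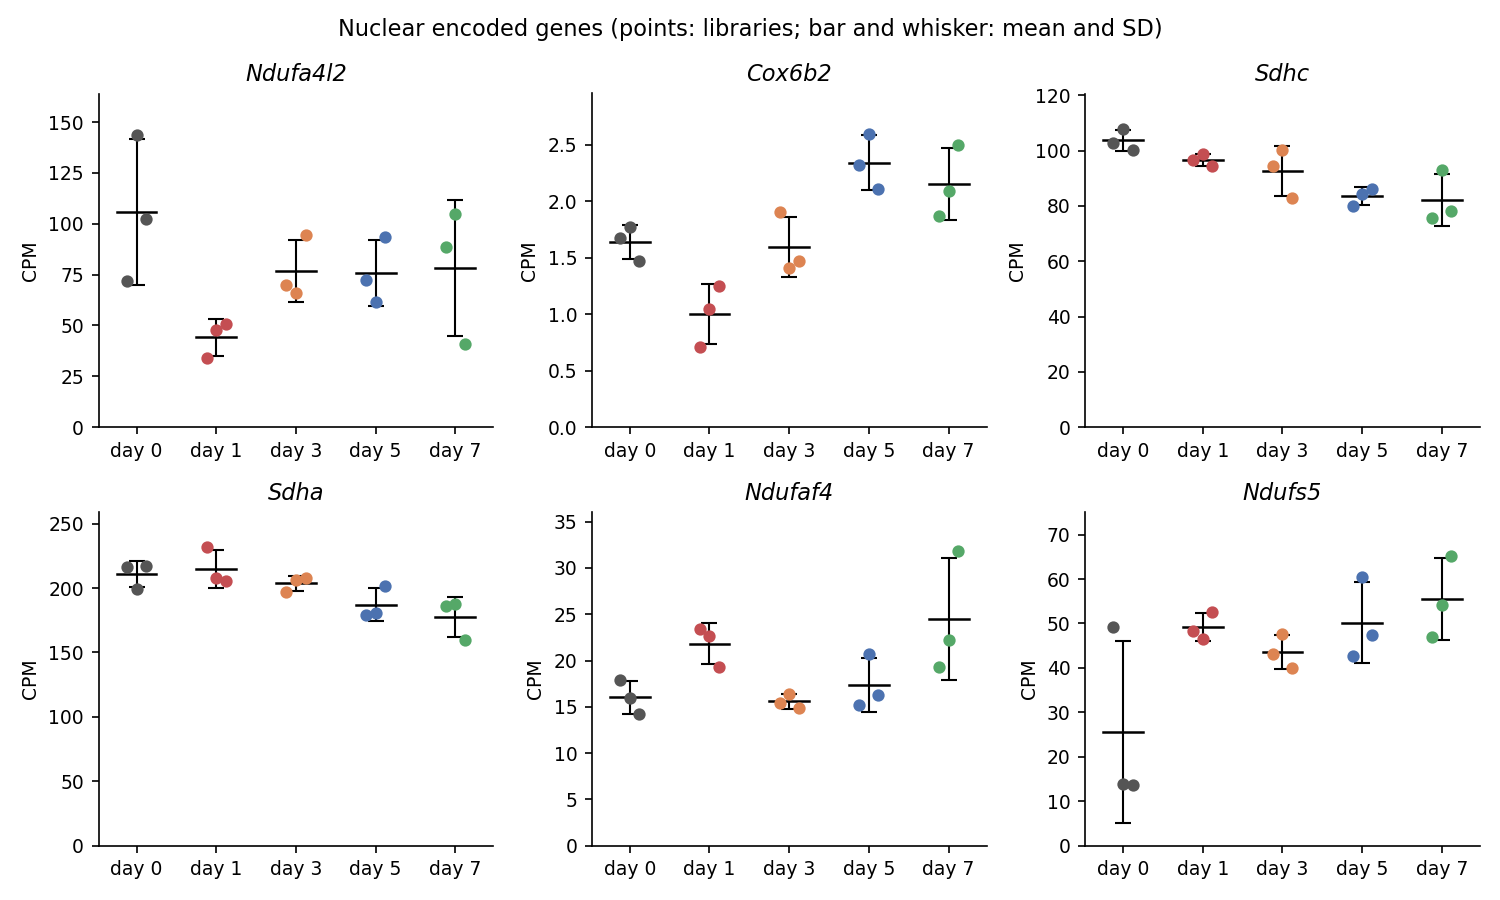
CPM of 6 nuclear encoded genes at day 0, 1, 3, 5 and 7, with points for libraries and the mean and SD of 3. Ndufa4l2 is lowest at day 1 (33.8 to 50.6 CPM), Cox6b2 lies between 0.713 and 2.59 CPM, Sdhc and Sdha lie below day 0 at day 7, Ndufaf4 is highest in day 7 replicate 3 (31.9 CPM), and Ndufs5 has day 0 points at 13.9 and 13.6 CPM.

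Complex IV, cytochrome c oxidase, has subunits that exist as tissue isoforms. Its 16 nuclear members had medians of -0.01, -0.10, -0.06 and 0.11. Cox6b2, the testis isoform of a subunit on the side of cytochrome c, was called in the F test over the 5 times (adjusted p = 0.0229, edgeR). It was at 1.68, 1.77 and 1.47 CPM at day 0, 0.713, 1.05 and 1.25 CPM at day 1, 1.90, 1.41 and 1.47 CPM at day 3, 2.33, 2.59 and 2.11 CPM at day 5, and 1.87, 2.09 and 2.50 CPM at day 7. It was lowest at day 1 and highest at day 5, at levels that made up 0.643% to 2.31% of the counts of Cox6b1 and Cox6b2. The call was lost without day 1 replicate 1 or day 1 replicate 2 (highest adjusted p 0.0663). Cox4i2, an isoform best known from lung, had 3.53, 4.08 and 4.51 CPM in day 7 libraries and 2.11, 2.68 and 2.92 CPM in day 0 libraries without passing (log2 fold change 0.65; adjusted p = 0.0688), and gave 0.787% to 1.70% of the counts of Cox4i1 and Cox4i2.

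Cox6a2, Cox7a1 and Cox8b are the isoforms of heart and skeletal muscle, and their partners Cox6a1, Cox7a2 and Cox8a are made in most tissues. The muscle isoforms gave 6.69% to 25.6%, 3.28% to 15.7% and 3.87% to 16.1% of the counts of each pair across libraries. Cox8b was at 16.5, 24.4 and 28.2 CPM at day 0, 18.8, 12.5 and 11.6 CPM at day 1, 11.7, 13.4 and 14.02 CPM at day 3, 12.9, 12.6 and 16.4 CPM at day 5, and 12.5, 21.1 and 9.51 CPM at day 7. Cox7a1 was at 10.2, 16.1 and 17.0 CPM at day 0 and 3.88 to 13.9 CPM later, and Cox6a2 at 35.1, 37.0 and 47.5 CPM at day 0 and 18.5 to 45.4 CPM later. None of the 3 was called at any time, and their log2 fold changes lay between -1.11 and -0.12. The summed level of the 12 skeletal muscle markers was 8704 to 13546 CPM at day 0, 7364 to 10562 CPM at day 1, 7011 to 12009 CPM at day 3, 4738 to 7988 CPM at day 5 and 3130 to 8561 CPM at day 7. All 12 were tested, none was at 0, and at day 7 Acta1, muscle actin, was called lower (log2 fold change -1.19, adjusted p = 0.0497). Day 0 replicates 2 and 3 had the 2 highest levels of Cox7a1, Cox8b and the marker sum, and day 7 replicate 3 had the lowest of Cox6a2, Cox8b and the marker sum. Elsewhere the orders differed. Counted from the highest, day 3 replicate 2 ranked 3 for the marker sum but 10 for Cox7a1 and 8 for Cox8b. Day 0 replicate 2 ranked 1 for the marker sum but 7 for Cox6a2. The part of muscle in these values was not tested.

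**Figure D5:**
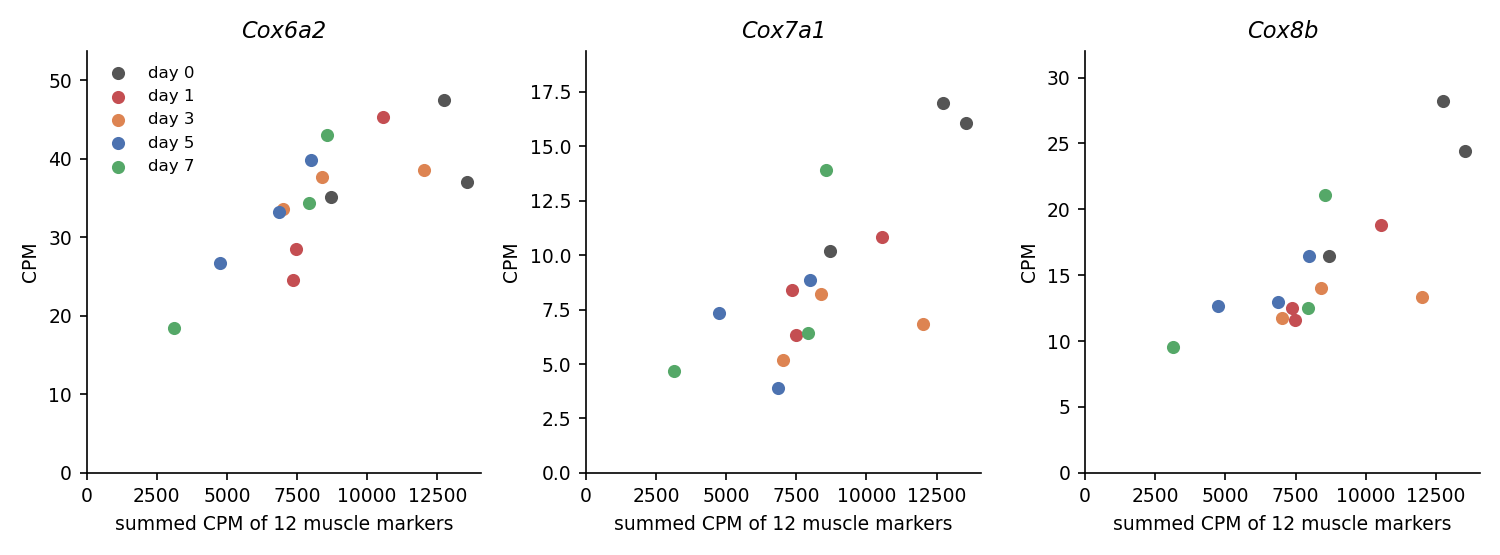
CPM of the muscle isoforms Cox6a2, Cox7a1 and Cox8b against the summed CPM of 12 skeletal muscle markers, with a point for each of the 15 libraries, coloured by day. Day 7 replicate 3 is at the left, with a marker sum of 3130 CPM, and day 0 replicates 2 and 3 are at the right, with 13546 and 12740 CPM.

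The 9 assembly factors build the complexes without staying in them. Their medians were 0.07, -0.04, -0.11 and 0.16 at day 1, 3, 5 and 7, and edgeR called none. Unadjusted edgeR p-values under 0.05 came to 2, 1, 1 and 2 of the 9. Over all 17136 genes tested they came to 4633, 2707, 3374 and 4789. DESeq2 called Atp5sl lower at day 1, Ndufaf5 lower at day 5 and Ndufaf4 higher at day 7. Ndufaf4, a factor for the early complex I intermediates, was at 19.4, 22.2 and 31.9 CPM in day 7 libraries and 17.9, 15.9 and 14.3 CPM in day 0 libraries, with no overlap and a log2 fold change of 0.61 (SE 0.18; adjusted p = 0.0554). Ndufaf5 was at 7.37 to 12.5 CPM and Ndufaf6 at 3.19 to 6.23 CPM over all libraries. Atp5s, counted with complex V by its name, was also among the 5 nuclear members with the fewest counts, at 5.88 to 8.45 CPM.

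Promoters of the nuclear genes were read for motifs of factors known for respiratory genes. RefSeq windows on GRCm38.p6, from 250 bases before to 50 after the start, were found for 76 of the 91 nuclear members, 3 of them through an older symbol. The full NRF1 motif, GCGCA directly followed by TGCGC and the same on both strands, was in 7 of the 76 (9.21%), against 1.07% of 27025 genes with a window. These were Atp5g2, Atp5k, Cox6a1, Ndufa11, Ndufaf4, Ndufaf5 and Uqcrc1. With N in place of the T that follows GCGCA (either strand), which includes the full motif, it was in 19 (25%) against 5.19%. The YY1 motif AAGATGGC was in 12 (15.8%) against 3.19%, the ETS motif CCGGAAGT in 5 (6.58%) against 4.31%, and the ERR motif TNAAGGTCA in 3 (3.95%) against 1.43%, each on either strand. The muscle E-box CAGCTG was in 6 (7.89%) against 18.3%, and the MEF2 motif TAAAAATA in 0 against 3.09%. Among the 6 genes with the E-box, Cox8b was the only muscle isoform. The muscle isoform Cox7a1 had a window without it, and Cox6a2 had no window. A match is a run of letters and says nothing of binding in these samples. The 27025 genes were not matched to the members for base composition or level. Promoters of Cox6a1, the common isoform, and of Ndufaf4 are shown for the NRF1 motif, and that of the muscle isoform Cox8b for its E-boxes, all 5′ to 3′ on the gene's strand with the motif in capitals. They lie at chr5:115348909-115349208 (minus strand), chr4:24897833-24898132 (plus strand) and chr7:140900397-140900696 (minus strand).
Cox6a1: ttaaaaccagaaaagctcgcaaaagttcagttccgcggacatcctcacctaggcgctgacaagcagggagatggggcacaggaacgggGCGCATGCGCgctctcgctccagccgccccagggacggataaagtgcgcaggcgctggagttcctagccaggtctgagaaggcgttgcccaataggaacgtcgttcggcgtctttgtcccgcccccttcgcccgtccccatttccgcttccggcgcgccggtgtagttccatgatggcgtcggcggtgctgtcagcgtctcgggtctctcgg
Ndufaf4: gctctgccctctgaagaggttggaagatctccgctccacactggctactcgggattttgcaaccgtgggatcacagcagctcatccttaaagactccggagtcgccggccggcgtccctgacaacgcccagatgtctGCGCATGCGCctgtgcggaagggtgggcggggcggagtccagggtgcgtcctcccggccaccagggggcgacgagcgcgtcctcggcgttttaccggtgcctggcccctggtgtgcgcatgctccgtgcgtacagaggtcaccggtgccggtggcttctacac
Cox8b: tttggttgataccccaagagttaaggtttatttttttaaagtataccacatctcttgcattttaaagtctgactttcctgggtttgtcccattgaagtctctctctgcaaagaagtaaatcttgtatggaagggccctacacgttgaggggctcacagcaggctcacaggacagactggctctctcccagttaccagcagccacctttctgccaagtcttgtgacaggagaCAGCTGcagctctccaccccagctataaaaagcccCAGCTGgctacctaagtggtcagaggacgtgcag
Among the 7 genes with the full NRF1 motif, log2 fold changes at day 7 included 0.61 for Ndufaf4 and 0.27 for Cox6a1. They also included -0.30 for Uqcrc1 and -0.46 for Atp5k. None of the 7 was called by edgeR at day 7, while DESeq2 called Ndufaf4 higher and Uqcrc1 lower. Whether the motif goes with a direction of change was not tested.

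Genes that make and read mitochondrial RNA were looked at beside the mitochondrial transcripts. For the counts in this and the next 3 paragraphs, the shares of all genes tested are given here. At day 1, 4.22% were called higher and 7.58% either way, and at day 7 these were 3.1% and 7.05%. At day 3 and 5, 0.788% and 0.502% were called either way. Of 26 genes for mitochondrial DNA expression, 3 were called higher at day 7 and none lower: Tfb2m, which opens the promoter for the mitochondrial RNA polymerase (log2 fold change 0.43, adjusted p = 0.0160), and the mTERF family members Mterf1a (0.64, adjusted p = 0.0311) and Mterf3 (0.38, adjusted p = 0.0273). At day 1 Pnpt1, a mitochondrial RNA-degrading enzyme, was called higher (0.69, adjusted p = 0.0188). Of 78 mitochondrial ribosome genes, Mrpl35 and Mrpl52 were called higher at day 1, and Mrpl32 and Mrpl50 at day 7 (0.70 and 0.59), with list medians of 0.14 and 0.15; 2 of 78 is no larger a share than that of all genes called higher. No gene of either list was called at day 3 or 5.

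Of 15 regulators of mitochondrial biogenesis, Ppard was called higher at day 1 (0.49, adjusted p = 0.0365), and Sirt3 (-0.86, adjusted p = 0.0211) and Perm1 (-1.09, adjusted p = 0.0132) lower; Sirt3 is the main mitochondrial deacetylase and Perm1 is a muscle-enriched regulator of oxidative metabolism. At day 7 the coactivator gene Ppargc1b was called lower (-1.19, adjusted p = 0.0168), at 2.61, 2.23 and 1.37 CPM in day 7 libraries and 3.90, 5.06 and 5.16 CPM in day 0 libraries, while Yy1 (0.35, adjusted p = 0.0212) and Sirt1 (0.56, adjusted p = 0.0331) were called higher. Of 18 genes taken as measures of mitochondrial mass, 1 was called, the chaperonin gene Hspd1, higher at day 1 (0.59, adjusted p = 0.0457). Of 35 assembly genes of complexes II to V, Cox20 was called higher (0.45, adjusted p = 0.0241) and Coa5 lower (-0.32, adjusted p = 0.0288), both at day 7. Of 23 genes of the citric acid cycle and pyruvate entry, 1 was called higher and 1 lower at day 7, and the one called higher was the pyruvate dehydrogenase kinase gene Pdk3 (0.50, adjusted p = 0.0483). None of 8 other complex I assembly genes and none of 16 electron carrier genes was called against day 0.

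Among 11 genes of mitophagy and the hypoxia response, Hif1a was higher at day 1, at 333, 323 and 332 CPM, against 193, 127 and 138 CPM at day 0 (log2 fold change 1.11, adjusted p = 0.00515). The glucose transporter gene Slc2a1 was also higher at day 1 (1.22, adjusted p = 0.0138), and both were called at day 3 (0.83 and 1.29). Egln3, an oxygen-sensing prolyl hydroxylase, was called at day 3, 5 and 7 (0.84, 0.74 and 0.87), and Bnip3l, a mitophagy receptor, at day 7 (0.51, adjusted p = 0.0377). Of 4 uncoupling and thermogenic genes tested, Dio2 was higher (1.44, adjusted p = 0.00515) and Ucp3 lower (-1.26, adjusted p = 0.0314) at day 1.

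Markers of other cells also differed between the times. The 6 dermal fibroblast markers summed to 58939 to 69238 CPM at day 0, 24048 to 51321 CPM at day 1, 30586 to 65340 CPM at day 3, 27272 to 48750 CPM at day 5 and 27842 to 58346 CPM at day 7. Every library of day 1, 5 and 7 lay below all 3 of day 0, while day 3 overlapped it. Of the 6 markers, Pdgfra was called, higher at day 1 (log2 fold change 1.28, adjusted p = 0.00911), and none was called at day 3, 5 or 7. The 7 adipocyte markers summed to 1133 to 1351 CPM at day 7 and 1460 to 2046 CPM at day 0, with none called. Of 8 neutrophil markers, 7 were called higher at day 1 and 2 at day 3, and 1 lower at day 7. Of all genes tested, 4.22% were called higher at day 1, 0.595% higher at day 3 and 676 of 17136 lower at day 7. The neutrophil markers summed to 62.1 to 205 CPM at day 0, 827 to 1303 CPM at day 1 and 536 to 936 CPM at day 3. Their sum was 143 to 375 CPM at day 5 and 48.6 to 255 CPM at day 7. Of 7 macrophage markers 4 were called lower at day 7, with a summed level of 2122 to 3540 CPM at day 7 and 3066 to 4827 CPM at day 0. Of 9 keratinocyte markers Krt14 was called, higher at day 3 (log2 fold change 1.87, adjusted p = 0.0460), and their summed level was 8075 to 10088 CPM at day 7 and 5637 to 9317 CPM at day 0. The 12 hair follicle markers were not called at any time, with summed levels of 287 to 16247 CPM at day 7 and 14.7 to 1482 CPM at day 0. The part of a changed cell mixture in the mitochondrial result was not tested. Without the hair-rich libraries the log2 ratio of mitochondrial to nuclear counts exceeded that of day 0 by 0.66 at day 5 and 0.71 at day 7.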

How the data were processed

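RNA of 15 skin libraries, 3 at each of 5 times, was measured. The deposited values are estimated counts per gene symbol, which the authors made with kallisto 0.43, as the submitters' processing notes say; the transcript index, annotation, build and use of strand are not stated there. Pseudoalignment splits reads among matching transcripts, so copies and overlapping genes share counts. The counts were whole as deposited; 26 of 30307 rows with dates in place of symbols (0.155% to 0.179% of counts) were left out. Genes were kept by edgeR 4.0.16 (R 4.3.3, limma 3.58.1) with a minimum count of 10, scaled by TMM and fitted in 1 quasi-likelihood model with robust dispersion over all libraries; contrasts are two-sided. The script was checked on simulated counts. CPM uses the same scaling. At this depth counting error is small beside a common biological coefficient of variation of 30.9%. GENCODE M21 gave mitochondrial gene lengths.

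Members, gene lists and tests were chosen with earlier results of these data known. Named genes are all 13 mitochondrial members, up to 2 called nuclear members per complex, direction and comparison, tissue isoforms, the Sdh genes, the 5 nuclear members with the most and the 5 with the fewest counts, and called genes of other lists, up to 3 a comparison. Ndufs5, Ndufs3, Uqcrc1, Atp5k, Ndufaf4 and Ndufaf5 were chosen after their values were seen. DESeq2 1.42.0, other scalings and filters, a replicate block and leaving out libraries were tried. Results of some genes are not reported here.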

Additional observations from a re-analysis of the deposited data

How the results depend on the processing

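The number of members called depended on the tool. DESeq2 called 13 at day 1, 2 at day 3, 13 at day 5 and 20 at day 7 (12 of them mitochondrial). It called 5 at day 3 against day 1, 9 at day 5 against day 3 and 28 over the 5 times. The share of all genes that DESeq2 called is not given here, so these counts cannot be set against it. At day 5 edgeR called 2 with DESeq2's size factors, with mitochondrial rows left out of library sizes, or with a filter at 1 CPM. Leaving out libraries gave 0 to 6 calls (day 1), 0 to 2 calls (day 3), 0 to 3 calls (day 5), 5 to 15 calls (day 7) and 7 to 18 calls (over the 5 times). With only replicate 1 kept of day 0, whose spread is then assumed to be that of the other groups, there were 0 calls at day 1, 5 and 7 and 5 over the 5 times, the log2 ratio of mitochondrial to nuclear counts was 0.47 above day 0 at day 1 and 0.80 at day 7, and mt-Nd3 turned to 0.86, 0.049, 0.65 and 1.03 at day 1, 3, 5 and 7. Fewer day 0 libraries enter that fit. Without the hair-rich libraries of day 5 and day 7, left out after seeing the data, 7 members were called at day 5 and 16 over the 5 times. The log2 ratio is taken from counts within a library, so scalings, filters, the block and the tool cannot change it. It kept its direction at each time when libraries were left out, and at day 3 ran from 0.029 to 0.189 with a library left out. The causes of these shifts were not tested. For fits other than the main one, the share of all genes called is not given here. With the replicate number as a block 2 members were called at day 1, 0 at day 5 and 10 at day 7. Replicate numbers are not known to pair libraries: 13 of 30 same-numbered pairs had deviations correlated over 0.1 (range -0.73 to 0.49), and 4 of 15 libraries correlated best with their own number. Of 582 values of 42 gene results under alternatives, 472 kept side and direction, 68 lost a call, 38 gained one and the 4 of mt-Nd3 reversed.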
